A study of Mus musculus with 6 samples.

Results

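The 9 genes described here make up the ERBB receptor system as it was measured in mouse islets. They are 3 receptors (*Egfr*, *Erbb2* and *Erbb3*), 5 ligands (*Egf*, *Btc*, *Areg*, *Hbegf* and *Tgfa*) and the feedback inhibitor *Errfi1*, chosen by symbol from the 40914 genes with counts. All 9 passed the filter on low counts that left 15407 genes for testing. Whole islets were taken at postnatal days 19 to 21 from wild-type (WT) mice and from *Akita* mice, which are heterozygous for the C96Y substitution in *Ins2* and so make a misfolding proinsulin beside the normal one. By the study's methods the *Akita* mice were males on the C57BL/6J background. The mutation is inherited, so that every cell of the mouse carried it. There were 3 WT libraries (WT1, WT2 and WT3) and 3 *Akita* libraries (AK4, AK5 and AK6), each from the pooled islets of 3 mice and 120 ng of total RNA. Values per library follow this order throughout. The hand-picked islets of both genotypes recovered overnight in RPMI-1640 medium with 11.1 mmol/l glucose and 10% serum before RNA was extracted. The comparison asks which growth factor receptor and ligand transcripts differ between *Akita* and WT islets before weaning.

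ERBB receptors are tyrosine kinases of the cell surface that work in pairs. EGFR binds EGF, transforming growth factor α, amphiregulin, heparin-binding EGF-like growth factor and betacellulin. ERBB2 has no known ligand of its own and acts as the favoured partner of the others, and ERBB3 binds neuregulins and has a weak kinase. The ligands are made as membrane precursors and are cut loose by proteases of the ADAM family. Active receptors signal through RAS and ERK, and ERK signaling raises *Errfi1*, whose product (MIG6) binds the EGFR kinase and blocks it. In the mouse, EGFR signaling is needed for β-cells to multiply after birth.

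*Egfr* (chr11:16752203-16918158, GRCm38, plus strand) and *Egf* (chr3:129677565-129755316, minus strand) were the genes of the set whose *Akita* and WT libraries did not overlap, and for that reason the 250 bases upstream of a RefSeq start of each (GRCm38.p6) are shown. The *Egfr* stretch lies at chr11:16751953-16752202 on the plus strand and the *Egf* stretch at chr3:129755323-129755572 on the minus strand. Both are written 5′ to 3′, and capitals mark a match to one of 4 motifs searched on both strands.
*Egfr*: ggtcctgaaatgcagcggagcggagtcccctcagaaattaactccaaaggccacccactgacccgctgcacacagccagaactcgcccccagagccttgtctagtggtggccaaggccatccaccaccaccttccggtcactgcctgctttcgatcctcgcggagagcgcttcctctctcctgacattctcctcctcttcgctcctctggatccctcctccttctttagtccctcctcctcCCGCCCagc
*Egf*: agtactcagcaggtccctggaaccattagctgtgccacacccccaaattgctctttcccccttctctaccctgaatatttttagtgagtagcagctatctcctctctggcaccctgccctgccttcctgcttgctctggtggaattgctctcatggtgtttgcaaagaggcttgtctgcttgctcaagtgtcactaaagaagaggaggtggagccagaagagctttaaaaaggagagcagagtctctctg
The motifs were the cyclic AMP response element TGACGTCA, the GC box GGGCGG, the TATA box TATAAA and the core of the ATF6 element of the unfolded protein response, TGACGTGG, which shares its first letters TGACGT with the cyclic AMP response element. In 32851 RefSeq promoter windows of the same length they were found in 1.55%, 32.7%, 12.4% and 0.563%, respectively. The *Egfr* window held 1 GC box, on the opposite strand and close to the start, and had a GC content of 60.8%. The *Egf* window held none of the 4 motifs and had a GC content of 50.4%. Promoters of 7 of the 9 genes were searched, and *Erbb3* and *Hbegf* are not described here. The cyclic AMP response element was found in *Areg* and in 1 of the windows of *Errfi1*, each of which also held a TATA box and at least 1 GC box. *Tgfa* held 2 GC boxes, and *Btc* and *Erbb2* held none of the motifs. The ATF6 core was in no window of these 7 genes.

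*Egfr* was lower in *Akita* islets and was the only one of the 9 genes that passed the test. It was read 692, 431 and 514 times in WT1, WT2 and WT3, and 332, 246 and 208 times in AK4, AK5 and AK6. Scaled to the depth of the libraries by TMM (the trimmed mean of M values) and given as CPM (counts per 1000000 scaled counts), this was 25.9, 17.8 and 24.9 in WT and 12, 9.01 and 8.28 in *Akita*. The lowest WT pool thus lay above the highest *Akita* pool. The mean was 22.9 ± 4.41 CPM in WT and 9.76 ± 1.97 CPM in *Akita* (SD, n = 3 pools each), which is 2.33-fold lower in *Akita*, or −1.22 on the log2 scale (SE 0.21, 95% interval −1.71 to −0.73). In limma-voom, which fits log2 CPM by a linear model with a precision weight for every value, the unadjusted p was 0.00063 and the p adjusted by Benjamini-Hochberg over all 15407 genes was 0.0447. The replicates are pools from one study. The p-values set the difference between genotypes against the spread between these pools, with the variance of each gene drawn toward that of all genes. Over all genes tested, 0.857% were called lower and 0.759% higher, and *Egfr* was number 215 of the 249 genes called when ordered by p. *Egfr* is among the genes that the study lists from these same libraries, so its call is not independent evidence of its direction. The direction held whichever library was left out, with a log2 fold change between −1.39 and −1.11, but the call held only without AK4 (adjusted p = 0.0380). It was lost without WT1 (0.101), WT2 (0.0612), WT3 (0.171), AK5 (0.155) or AK6 (0.162), by limma-voom with the same adjustment.

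**Figure D1:**
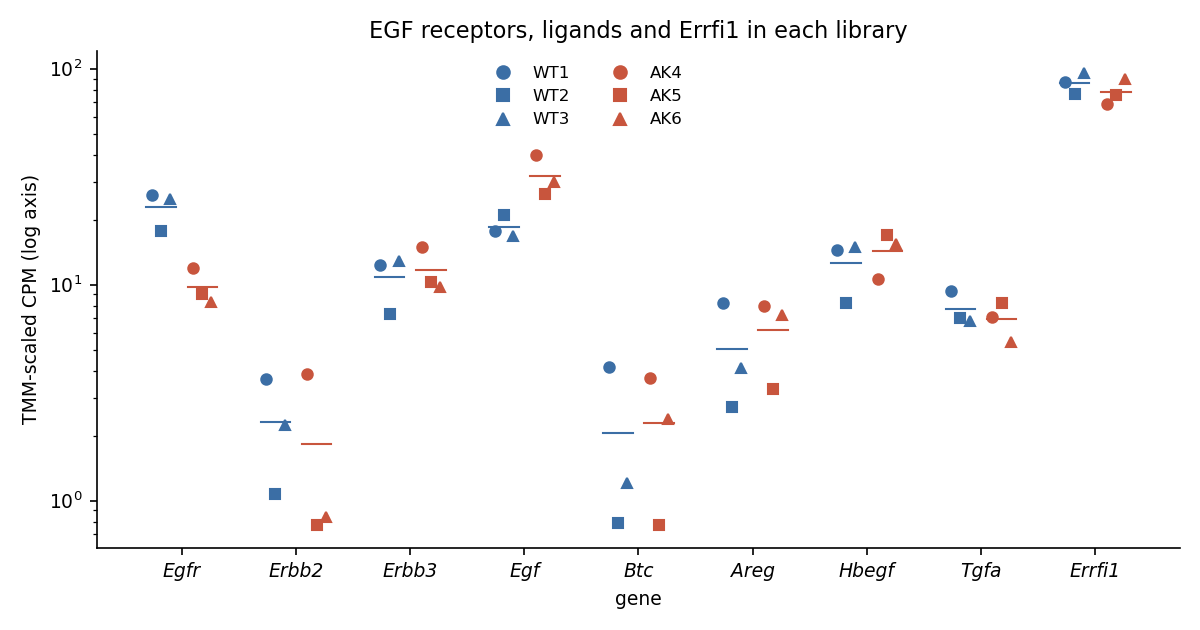
TMM-scaled CPM (log axis) of the 3 receptors, 5 ligands and *Errfi1* in each library, with WT in blue, *Akita* in red, a symbol for each library and a line at the mean of each genotype. *Egfr* lies at 17.8 to 25.9 CPM in WT and at 8.28 to 12 in *Akita*, *Egf* is the only other gene without overlap, and *Erbb2*, *Btc* and *Areg* scatter within both genotypes.

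In whole islets, fewer cells of a type and less RNA per cell cannot be told apart, and β-cell transcripts were lower in the same pools. The 11 β-cell markers listed, all tested, summed to between 222396 and 246094 CPM in WT and between 132201 and 157103 CPM in *Akita*. Of them 4 were lower (*Ins2*, *Mafa*, *Nkx6-1* and *G6pc2*), none was higher and 7 did not pass, with a median log2 fold change of −0.56. Per 100000 CPM of this marker sum, which is mostly insulin, *Egfr* stood at 11.6, 7.84 and 10.1 CPM in the WT pools and at 9.07, 5.87 and 5.27 CPM in the *Akita* pools. On that scale, added after the data were seen, the genotypes overlapped. The sum was itself lower in *Akita*, and much of it is *Ins2*, the mutated gene (mean 133800 CPM in WT and 76530 CPM in *Akita*). Division by it makes any lower *Akita* value less low, so this scale does not give *Egfr* per β-cell. Acinar RNA varied between pools within both genotypes, and its 19 markers summed to 5987, 367 and 6889 CPM in WT and 7642, 324 and 1411 CPM in *Akita*. With the acinar sum as a covariate, the change of *Egfr* was −1.15 on the log2 scale (SE 0.13, limma-voom adjusted p = 0.0165).

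*Erbb3* (chr10:128567523-128589652, minus strand), the neuregulin receptor, had overlapping levels in the genotypes. It stood at 12.3, 7.31 and 12.8 CPM in the WT pools and at 14.9, 10.3 and 9.75 CPM in the *Akita* pools. The log2 fold change was 0.14 (SE 0.26, adjusted p = 0.826 from limma-voom), with a 95% interval from −0.48 to 0.76, so that a change of the size seen in *Egfr* lay outside it, while 0 and changes within these bounds did not.

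*Erbb2* (chr11:98412470-98437716, plus strand), the partner receptor, was weak and uneven. Its counts were 98, 26 and 46 in WT1, WT2 and WT3 and 107, 21 and 21 in AK4, AK5 and AK6. This was 3.67, 1.07 and 2.23 CPM in WT and 3.87, 0.769 and 0.836 CPM in *Akita*. AK4, WT1 and WT3 were high and the other pools low, so that the genotypes overlapped. A count of 21 has a 95% Poisson interval of 13 to 32.1 and the count of 107 in AK4 one of 87.7 to 129, so the gap within the *Akita* group was larger than counting error. The log2 fold change of −0.60 had a standard error of 0.71 (adjusted p = 0.707 from limma-voom) and a 95% interval from −2.27 to 1.08, which holds that of *Egfr* as well as 0.

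The pools high in *Erbb2* were those high in exocrine transcripts. The duct keratin *Krt19* stood at 50.9, 3.76 and 41.9 CPM in the WT pools and at 39.1, 1.69 and 3.42 CPM in the *Akita* pools. *Muc1*, an apical mucin of ducts, had 17.0, 2.85 and 13.9 CPM in WT and 17.6, 3.30 and 6.53 CPM in *Akita*. WT1, WT3 and AK4 were thus the highest pools in *Krt19*, *Muc1*, the acinar sum and *Erbb2*. *Erbb3* was highest in the same pools, at 12.3, 12.8 and 14.9 CPM, against 7.31 to 10.3 CPM in the others. *Egfr* was higher in WT1 and WT3 than in WT2, and higher in AK4 than in AK5 and AK6. Over all 13 ductal markers, each with counts and none at 0 in every library, the sum was 1395 to 2422 CPM in WT and 1300 to 1603 CPM in *Akita*, none passed the test, and the median log2 fold change was −0.22. The acinar list had a median of −0.73, with none of 19 past the test. Of its transcription factor genes, *Ptf1a* and *Rbpjl* were at 0 in WT2 and at most 0.903 and 2.06 CPM in any pool. *Bhlha15*, another of them, did not follow the acinar sum, with 104, 96.6 and 98.8 CPM in WT and 129, 102 and 105 CPM in *Akita*. With the acinar sum as a covariate the log2 fold change of *Erbb2* was −0.16 (SE 0.41), against −0.60 (SE 0.71) without it. That of *Erbb3* was 0.22 (SE 0.15) with the covariate and 0.14 (SE 0.26) without. The SE of *Egfr* was 0.13 with it and 0.21 without. The part of these cells in the values of the 3 receptors was not tested further.

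The remaining receptor gene of the family, *Erbb4*, is not one of the 9 and had 2 to 7 counts per library, too few for the test. Of the 3 receptors tested, 1 was lower and none higher.

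Among the ligands none passed the test, and *Egf* was the nearest to it. *Egf* encodes a large membrane precursor from which the epidermal growth factor peptide is cut. It was read 476, 511 and 347 times in WT1, WT2 and WT3 and 1102, 714 and 749 times in AK4, AK5 and AK6. In CPM this was 17.8, 21.1 and 16.8 in WT and 39.8, 26.2 and 29.8 in *Akita*, so that each *Akita* pool lay above each WT pool. The mean was 18.6 ± 2.25 CPM in WT and 31.9 ± 7.07 CPM in *Akita* (SD, n = 3 pools each), with a log2 fold change of 0.76 (SE 0.18, 95% interval 0.33 to 1.2, 1.70-fold), an unadjusted p of 0.00411 and an adjusted p of 0.0953 by limma-voom. An unadjusted p under 0.05 was reached by 18.7% of all genes tested, and by 2 of the 9 genes, *Egfr* and *Egf*. All *Akita* libraries lay above all WT libraries in 13.2% of all genes and below them in 12.2%, and among the 9 genes in 1 each. The value of *Egf* was positive under all 16 alternatives tried, between 0.55 and 0.90. It passed the adjusted threshold only when libraries were weighted by quality (adjusted p = 0.0494, limma-voom). The alternative of an unadjusted p under 0.05 changed only the threshold, so it repeats the value of 0.76. The library kit does not mark strand, and 5.4% of the exon bases of *Egf* overlap *Gm42697* and 4.4% overlap *6330410L21Rik*, both on the other strand, whose reads cannot be told apart there.

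*Btc* (chr5:91357261-91402994, minus strand), the gene of betacellulin, a ligand of EGFR and ERBB4, was among the weakest of the set. It had 111, 19 and 25 counts in WT1, WT2 and WT3 and 102, 21 and 60 in AK4, AK5 and AK6, or 4.15, 0.784 and 1.21 CPM in WT and 3.69, 0.769 and 2.39 CPM in *Akita*. The highest pool exceeded the lowest 5.29-fold within WT and 4.79-fold within *Akita*, and the log2 fold change between genotypes was 0.21 (SE 0.77, 95% interval −1.61 to 2.03, adjusted p = 0.917 from limma-voom). The direction turned without WT2 (−0.32) and without AK4 (−0.28).

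*Areg* (chr5:91139599-91148432, plus strand), the gene of amphiregulin, stood at 8.23, 2.72 and 4.11 CPM in the WT pools and at 7.95, 3.30 and 7.20 CPM in the *Akita* pools. As with *Btc*, WT1, AK4 and AK6 were the high pools and the genotypes overlapped. The log2 fold change was 0.31 (SE 0.49, 95% interval −0.84 to 1.46, adjusted p = 0.785 from limma-voom) and became −0.07 without WT2. *Ereg*, the gene of epiregulin and no member of the set, had 13.5, 1.94 and 2.18 CPM in WT and 5.46, 1.58 and 4.58 CPM in *Akita*, with the same 3 pools on top.

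The pools high in *Btc*, *Areg* and *Ereg* were also those richest in mesenchymal transcripts. The 12 mesenchymal markers, collagens and pericyte genes among them, summed to 711, 113 and 167 CPM in WT1, WT2 and WT3 and to 425, 254 and 292 CPM in AK4, AK5 and AK6. None of the 12 was at 0 in every library, 11 lay above 0 and 1 below in log2 fold change with a median of 0.46, and none passed the test. The part of mesenchymal cells in the levels of these ligands was not tested.

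**Figure D2:**
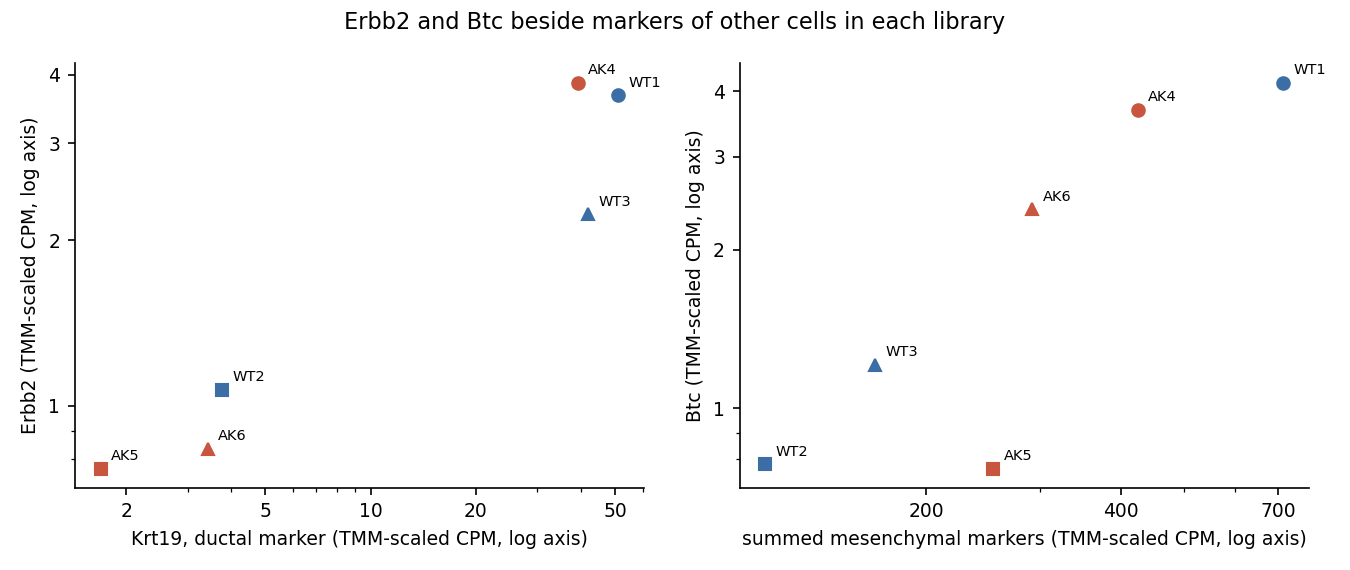
*Erbb2* against the duct marker *Krt19* (left) and *Btc* against the summed mesenchymal markers (right), each point a library and all axes TMM-scaled CPM on a log scale, WT in blue and *Akita* in red. WT1, WT3 and AK4, with *Krt19* at 39.1 to 50.9 CPM, are highest in *Erbb2*, and WT1 and AK4, with marker sums of 711 and 425 CPM, are highest in *Btc*.

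*Hbegf* (chr18:36504929-36515805, minus strand), the gene of heparin-binding EGF-like growth factor, stood at 14.5, 8.21 and 14.9 CPM in the WT pools and at 10.6, 16.9 and 15.5 CPM in the *Akita* pools. WT2 and AK4 were the low pools, and the log2 fold change was 0.22 (SE 0.28, 95% interval −0.44 to 0.87, adjusted p = 0.732 from limma-voom). *Tgfa* (chr6:86195223-86275719, plus strand), the gene of transforming growth factor α, stood at 9.39, 6.98 and 6.77 CPM in WT and at 7.08, 8.24 and 5.45 CPM in *Akita*. Its log2 fold change was −0.17 (SE 0.21, 95% interval −0.66 to 0.33, adjusted p = 0.723 from limma-voom). In neither gene did the genotypes separate. Of the ligand family outside the set, *Nrg4* and *Nrg1* were tested at under 2 CPM and did not pass, and *Nrg2*, *Epgn* and *Nrg3* had at most 9 counts in a library and were not tested. In all, 8 of 11 ligand genes were tested, none was called, 5 lay above 0 and 3 below, with a median log2 fold change of 0.21 against −0.0011 over all genes tested.

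*Errfi1* (chr4:150853919-150868892, plus strand), the EGFR inhibitor, was the most abundant gene of the set and varied least. It stood at 86.5, 76.5 and 95.1 CPM in the WT pools and at 68.5, 75.5 and 89.7 CPM in the *Akita* pools, a ratio of 1.39 between the highest and the lowest of the 6 libraries. The log2 fold change was −0.15 (SE 0.12, adjusted p = 0.585 from limma-voom). Its 95% interval, −0.44 to 0.15, does not reach the change of *Egfr*. Over the 9 genes, 5 log2 fold changes lay above 0 and 4 below, with a median of 0.14.

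**Figure D3:**
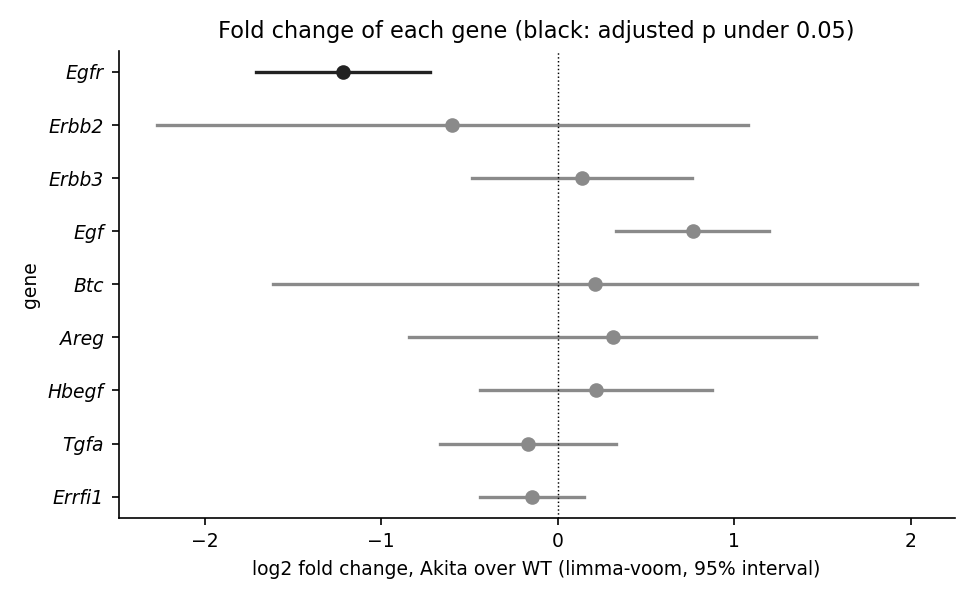
Fold change between *Akita* and WT on the log2 scale, as fitted by limma-voom (x axis), for the 9 genes, each point with its 95% interval, black where the adjusted p was under 0.05 and grey elsewhere. The interval of *Egfr* runs from −1.71 to −0.73 and that of *Egf* from 0.33 to 1.2, and the other intervals hold 0, most widely in *Erbb2* and *Btc*.

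To compare levels between genes, the scaled CPM were divided by the kilobases of exon of each gene, which gives RPKM on the TMM scale. On this scale *Errfi1* led in both genotypes, at 24.0 ± 2.60 RPKM in WT and 21.7 ± 3.02 RPKM in *Akita* (SD, n = 3 pools each). *Areg* followed, without overlap, at 4.13 RPKM in WT and 5.06 in *Akita*, then *Hbegf* at 2.59 and 2.97 RPKM. In WT the next levels were those of *Egfr* (2.02 ± 0.389 RPKM), *Erbb3* (1.80 RPKM) and *Egf* (1.65 RPKM), and from *Areg* to *Egf* each neighbour in the order overlapped the next. In *Akita* islets *Egfr* (0.862 ± 0.174 RPKM) was number 7 of the 9, below *Egf* (2.83 RPKM), *Erbb3* (1.94 RPKM) and *Tgfa* (1.07 RPKM). The *Akita* pools of *Egfr* overlapped those of *Tgfa*, *Btc* and *Erbb2*. *Btc* (0.453 and 0.505 RPKM) and *Erbb2* (0.446 and 0.350 RPKM) were the lowest in both genotypes, and overlapped each other. The order of several genes depends on the length used. With the longest coding transcript in place of all exons, *Egf* was number 4 of the 9 in WT (3.90 RPKM) and number 2 in *Akita* (6.71 RPKM), and *Egfr* was number 5 (2.24 RPKM) and number 7 (0.956 RPKM). *Hbegf* (5.28 RPKM in WT and 6.04 RPKM in *Akita*) then stood above *Areg* (4.13 and 5.06 RPKM), which was number 3 in WT and number 4 in *Akita*.

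**Figure D4:**
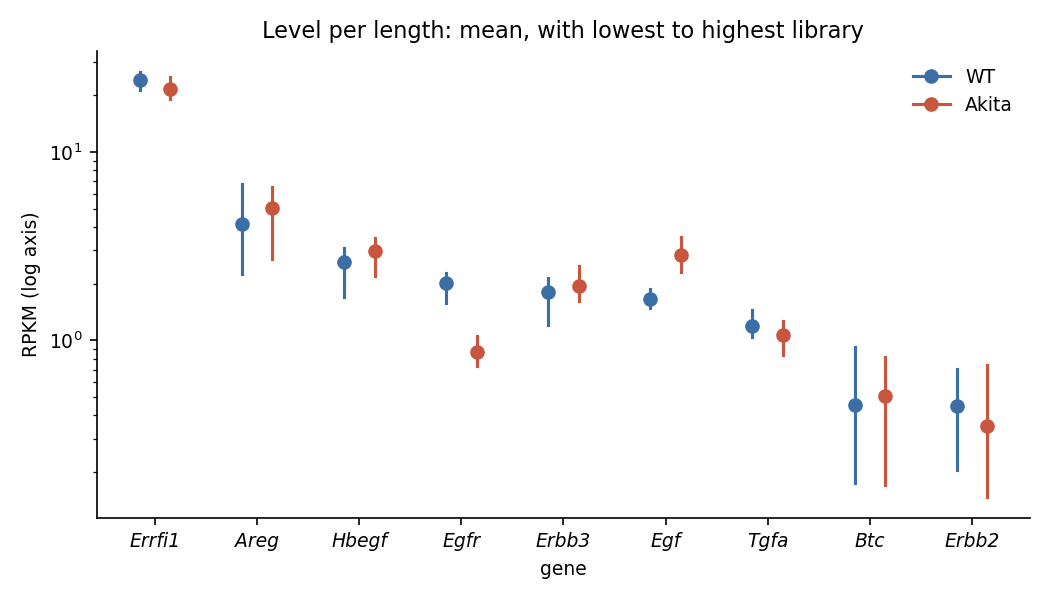
Level per length in RPKM (log axis) of the 9 genes, ordered by the WT mean, with a point at the mean and a line from the lowest to the highest library, WT in blue and *Akita* in red. *Egfr* falls from 2.02 RPKM in WT to 0.862 RPKM in *Akita* and *Egf* lies at 1.65 and 2.83 RPKM, while *Errfi1* is the highest of the set in both.

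Ratios between genes of one library do not depend on how libraries are scaled to each other. They show the balance of reads over all cells of the islets, with no correction for length. The counts of *Egfr* over those of *Erbb3* were 2.10, 2.44 and 1.94 in WT1, WT2 and WT3 and 0.804, 0.875 and 0.849 in AK4, AK5 and AK6. *Egfr* thus had more reads than *Erbb3* in every WT pool and fewer in every *Akita* pool, and the spread within each genotype was small beside the gap. Of the receptor RNA per length, *Egfr* made up 45.4%, 52.5% and 46.2% in WT and 24.7%, 30.0% and 29.1% in *Akita*, and *Erbb3* 40.6%, 40.6% and 44.8% in WT and 57.9%, 64.5% and 64.5% in *Akita*. *Errfi1* over *Egfr*, reads of the inhibitor over reads of its target with no correction for length, was 3.34, 4.30 and 3.83 in WT and 5.71, 8.37 and 10.8 in *Akita*. *Egf* over *Egfr*, a ratio added after the data were seen, was 0.688, 1.19 and 0.675 in WT and 3.32, 2.90 and 3.60 in *Akita*. In these 3 ratios the genotypes did not overlap. They did in *Egfr* over *Erbb2*, which was 7.06, 16.6 and 11.2 in WT and 3.10, 11.7 and 9.90 in *Akita*, and in *Btc* over *Egfr*, which ranged from 0.0441 to 0.160 in WT and from 0.0854 to 0.307 in *Akita*. The ratios share counts of *Egfr* and were not tested.

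**Figure D5:**
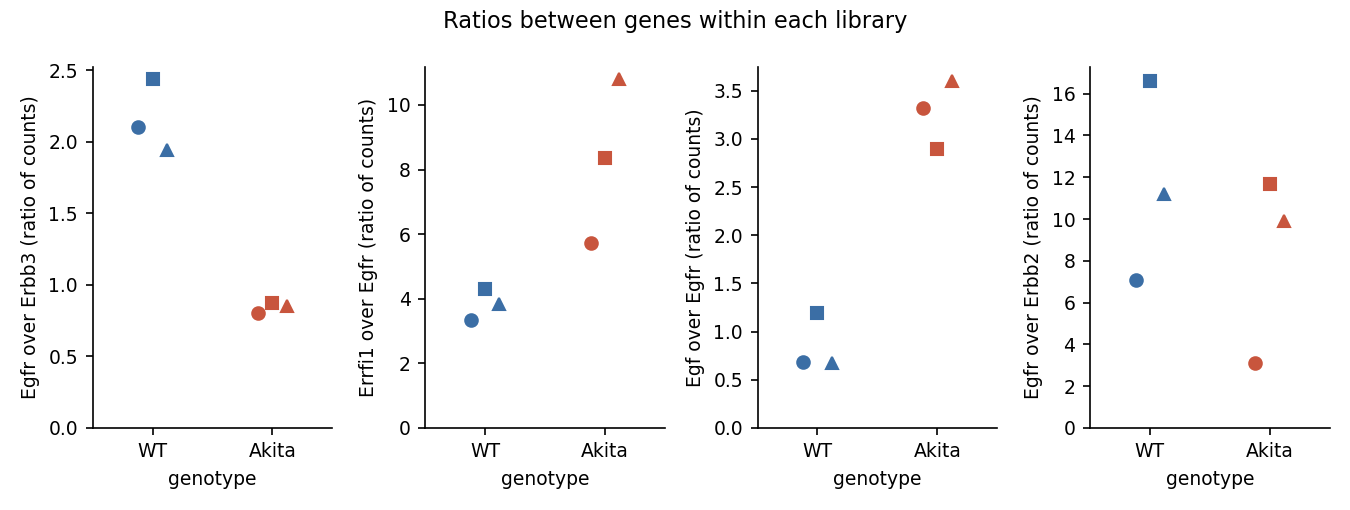
Ratios of counts between genes within each library (y axes, from 0), WT in blue and *Akita* in red, a symbol for each library. *Egfr* over *Erbb3* is 1.94 to 2.44 in WT and 0.804 to 0.875 in *Akita*, *Errfi1* over *Egfr* and *Egf* over *Egfr* are higher in each *Akita* pool than in any WT pool, and *Egfr* over *Erbb2* overlaps.

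The genes whose pattern over the 6 libraries was most like that of each member were sought among 13433 tested protein-coding genes, by the root mean square difference of log2 CPM after centring each gene on its mean. Closest to *Egfr* were *Kcnh1*, a voltage-gated potassium channel (difference 0.154), and *Spock1*, a secreted proteoglycan (0.167). *Kcnh1* stood at 22.7, 13.8 and 25.1 CPM in the WT pools and at 9.65, 7.33 and 8.40 CPM in the *Akita* pools, with an adjusted p of 0.0745 from limma-voom. *Egf* was most like *Tmie* (0.113) and *Tenm4*, a teneurin of the cell surface (0.119). *Tenm4* stood at 20.6, 22.1 and 19.9 CPM in WT and at 38.0, 31.2 and 30.8 CPM in *Akita*, a log2 fold change of 0.67, and was higher by the test (adjusted p = 0.0447, limma-voom). The chemokine gene *Ccl2* was the nearest to *Btc* (0.227), *Acsbg1* to *Areg* (0.142) and the interferon regulatory factor gene *Irf5* to *Erbb2* (0.177). *Stmn4* was nearest to *Erbb3* (0.0730), *Olfml2b* to *Hbegf* (0.0670), *Pter* to *Tgfa* (0.0820) and *Glt8d2* to *Errfi1* (0.0580).

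Around these receptors, most genes of the pathway did not pass the test. Of 10 genes that shed or traffic the ligands none was called, and the lowest p was that of *Adam9*, a sheddase, at 107.4 ± 0.654 CPM in WT and 80.4 ± 9.53 CPM in *Akita* (SD, n = 3 pools each, limma-voom adjusted p = 0.0825). Among 17 genes of receptor feedback and turnover, *Errfi1* included, the test called 1 higher and none lower and left 16 uncalled, with a median log2 fold change of −0.01. The one called was *Lrig1*, which binds EGFR and speeds its breakdown. It stood at 37.2, 39.0 and 37.6 CPM in the WT pools and at 53.6, 60.2 and 49.9 CPM in the *Akita* pools, a change of 0.52 on the log2 scale (SE 0.09, limma-voom adjusted p = 0.0466). *Lrig1* thus lay higher and *Egfr* lower in each pool of *Akita* than in each pool of WT, as did 13.2% and 12.2% of all genes tested, respectively. A link between the levels of *Lrig1* and *Egfr* was not tested. The call of *Lrig1* was lost with no filter on low counts (adjusted p = 0.0650) and without WT1 (0.128), WT2 (0.185), WT3 (0.183), AK5 (0.109) or AK6 (0.108), by limma-voom.

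Downstream, none of 19 adaptor and RAS-ERK cascade genes was called, with a median of −0.03. The lowest p was that of *Ptpn11*, the phosphatase SHP2, at 340, 403 and 376 CPM in WT and 280, 272 and 305 CPM in *Akita* (adjusted p = 0.0819 from limma-voom). Of 11 inhibitors of the ERK pathway none was called, and *Spry4* had the lowest p (16.7 ± 2.14 CPM in WT and 11 ± 1.76 CPM in *Akita*, SD, n = 3 pools each, adjusted p = 0.110 from limma-voom). Of 17 genes that ERK signaling induces, the test called 1 lower and none higher and left 16 uncalled, with a median of −0.14 and 12 of 17 below 0. *Dusp1*, a phosphatase of MAP kinases, fell from 150, 142 and 133 CPM in WT1, WT2 and WT3 to 98.5, 82.5 and 94.8 CPM in AK4, AK5 and AK6, a change of −0.63 on the log2 scale (SE 0.09, limma-voom adjusted p = 0.0328). *Dusp1* also responds to other signals, and its call was lost with library totals alone (adjusted p = 0.0546) and without WT1 (0.0914), WT2 (0.153), WT3 (0.107), AK5 (0.0826) or AK6 (0.112), by limma-voom.

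The libraries held 22069554 to 27043169 counts with TMM factors of 0.937 to 1.09. Markers of α-, δ- and PP-cells, endothelium, macrophages and Schwann cells held no gene past the test in either direction. The 8 α-cell markers summed to 27124 to 42202 CPM in WT and 39092 to 61028 CPM in *Akita*, and all 8 lay above 0 with a median log2 fold change of 0.48. The macrophage list summed to 163 to 277 CPM in WT and 88.3 to 218 CPM in *Akita*.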

How the data were processed

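Library names and positions follow the table that the authors deposited. They trimmed single reads of 50 bases with cutadapt 1.12, used STAR 2.5.2b to align them to GRCm38, took counts per gene by HTSeq 0.7.2 and tested the genotypes by DESeq2 1.12.4, as the study's methods and the submitters' processing notes give it. The annotation release is not given in the sources used here, nor is the strand setting. The deposited table holds raw counts, normalized counts, and fold changes and p-values of *Akita* over WT. Only the raw counts were used. Of 47729 rows, 40914 had whole counts and 6815 carried a mark in place of a count.

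Genes were tested when 3 libraries or more reached a CPM that corresponds to 10 counts in the library of median size, with a summed count of at least 15. TMM factors trimmed 30% of log ratios and 5% of mean levels. limma 3.58.1 (voom, pseudocount 0.5, R 4.3.3) compared 3 WT with 3 *Akita* libraries with no covariate. Calls needed an adjusted p (Benjamini-Hochberg, 15407 genes) below 0.05. Since the marks kept the columns from being taken as a plain count table, count models were not run. The fit was also run on simulated counts with 200 changed genes and the same dispersion in every gene. These do not copy the uneven spread between the real pools. Pools within a genotype differed beyond sampling noise (chi-square per degree of freedom of 20.4 or more). The *Akita* columns show the genotype but not which sample they hold. Exon lengths and overlaps came from GENCODE M21 and promoters from RefSeq (GRCm38.p6, without chromosome 18). Intervals of counts are exact Poisson intervals and cover counting error only.

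The 9 genes and the lists were chosen with earlier results of these data known. All 9 genes are named. From each pathway list every called gene, or else the gene of lowest p, is named, and for each of the 9 up to 2 genes of the nearest pattern. *Ereg*, *Krt19*, *Muc1* and the other ligands were named after their values were seen. Alternatives were other scalings, filters, tests and thresholds, an acinar covariate and each library left out. Leaving out WT1 with AK4, and the transcript length, were added after the data were seen.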

Additional observations from a re-analysis of the deposited data

How the results depend on the processing

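Under the 16 alternatives, *Egfr*, *Erbb2*, *Tgfa* and *Errfi1* stayed below 0 and *Egf* above 0. The alternative of an unadjusted p under 0.05 changed only the threshold, so its fold changes could not differ. With single libraries left out, *Erbb3* (−0.123 to 0.271), *Btc* (−0.317 to 0.954), *Areg* (−0.073 to 0.782) and *Hbegf* (−0.066 to 0.435) turned sign on the log2 scale without WT2, and *Erbb3* and *Btc* also without AK4 (−0.051 and −0.284). None of these was called. The count of the 9 genes called lower was 0 to 1 with single libraries left out, and 1 under every other alternative. With library quality weights or an unadjusted p under 0.05, 1 of the 9 genes was higher (*Egf*) in place of 0. Over all genes tested, with 117 higher and 132 lower, single libraries left out gave 0 to 344 higher and 0 to 240 lower. Quality weights gave 272 and 249, and an unadjusted p under 0.05 gave 1511 and 1368. Library totals alone gave 450 higher and 119 lower and shifted the median over all genes to 0.12 (log2). The cause of these shifts was not tested. Fits that left a library out had fewer libraries, and without AK4 the counts were 344 higher and 240 lower. Without WT1 and AK4 together, an alternative chosen after seeing the data, *Egfr* had a log2 fold change of −1.27 (limma-voom adjusted p = 0.0498) and *Lrig1* was not called (0.0855). No paired analysis was possible because the *Akita* columns do not carry the replicate numbers of the labels. *Erbb2* and *Btc* had the fewest counts, 19 to 111 per library, but their pools differed within a genotype by more than counting error.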
